A study of Mus musculus with 4 samples.

Results

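Scavenger receptors and receptors for apoptotic cells are surface proteins with which macrophages take up modified lipoproteins, glycoproteins, microbes, haemoglobin and dying cells. Transcripts of 10 mouse genes of this kind were followed: Mertk, Axl and their ligand Gas6, the class A scavenger receptors Msr1 and Marco, the mannose receptor Mrc1, the clearance receptors Stab1 and Cd163, the endosomal glycoprotein Cd68 and the lipoprotein receptor Scarb1. They were chosen by gene symbol, and every probe set annotated to one of these genes alone was taken, which gave 18 of the 45037 probe sets on the array. The gene IDs and symbols of all 10 matched the RefSeq gene table.

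The 2 groups were bone marrow-derived macrophages given lipopolysaccharide (LPS, a bacterial ligand of TLR4) together with immune complexes, which the series calls type II activation, and the same kind of cells given LPS alone, called classical activation. Both were grown for 7 days with 20% L-cell conditioned medium, which supplies M-CSF, primed with interferon-gamma at 100 U/ml (overnight for the first group and 16 h for the second), washed, and stimulated for 2 h with LPS at 10 ng/ml. Each group had 2 arrays, replicates 1 and 2. The strain, sex and age of the mice and the make-up of the immune complexes are not given in the sources used here, nor whether replicates came from separate animals or cultures. P-values therefore cover only the spread among these 4 samples, and that spread may be technical. The series asks which transcripts tell the stimulations apart.

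Apoptotic cells expose phosphatidylserine, which bridging proteins such as Gas6 bind and present to the receptor tyrosine kinases Mertk, Axl and Tyro3, known together as TAM receptors. Signalling from these receptors starts engulfment and dampens Toll-like receptor responses. Scavenger receptors bind broad classes of ligand, many of them polyanionic, and pass them to endosomes and lysosomes.

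Macrophage markers were bright on every array, and markers of other cell types were dim. The summed signal of 10 macrophage markers, among them Csf1r, Adgre1 and Cd14, was 191337.5 and 220232.5 with LPS plus immune complexes, against 222157.5 and 278026.3 with LPS. The 37 measured markers of dendritic cells, neutrophils, stroma, lymphocytes, mast cells and erythroid cells summed to 4843.4 and 2059.7 with immune complexes, against 2462.6 and 2619.3 with LPS. No such marker was at 0, and their part in the results was not tested. The first LPS plus immune complexes array stood apart at low signals, with a 5th percentile of 28.1, against 3.3 on the second and 7.9 and 4.2 on the LPS arrays. Its median signal was 155.4, while the other 3 arrays had medians from 68.2 to 88.3. On the log2 scale, Pearson's r over the tested probe sets was 0.89 between the replicates with immune complexes and 0.93 between the LPS replicates. Between stimulations it was 0.91 for the first arrays and 0.97 for the second arrays, and 0.87 and 0.93 for arrays of different number. Since RNA came from whole cultures, fewer cells with a transcript and less of it per cell cannot be told apart.

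Of the 10 genes, 8 had a probe set bright enough to test, 13 probe sets in all. In the main fit, which did not pair arrays by replicate number, none of these differed between the stimulations past the threshold. With limma, 0 of the 13 had a Benjamini-Hochberg adjusted p under 0.05, against 0.0518% of all 27022 tested probe sets, and 0 of the 8 genes, each by its brightest probe set, against 0.0621% of 12891 genes. At an unadjusted limma p under 0.05 there was 1 of 13, the Mertk probe set, against 2.81% of all probe sets. The signals of the stimulations overlapped for all 13, whereas in 25.5% of all tested probe sets they did not overlap, and 0 of the 13 were at least 2-fold apart in every one of the 4 pairings of an array with immune complexes and an LPS array, against 0.94% of all. The median log2 fold change of the 8 genes was -0.02, beside 0.05 over all tested genes, with 4 genes below 0 and 4 above. Each of the 8 genes averaged a signal over 500. Of the 9703 tested probe sets this bright, 5964 were below 0 and 3739 above, and their median was -0.09. The median of the 8 genes thus lay below that of all tested genes. By probe set, 9 of the 13 were below 0 and 4 above. Their median was -0.15, lower than the -0.09 of these bright probe sets. Msr1 and Scarb1 enter the 13 with several probe sets each. Fold changes are LPS plus immune complexes over LPS and were taken on log2(signal + 32), a scale on which changes of dim probe sets come out too small.

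**Figure D1:**
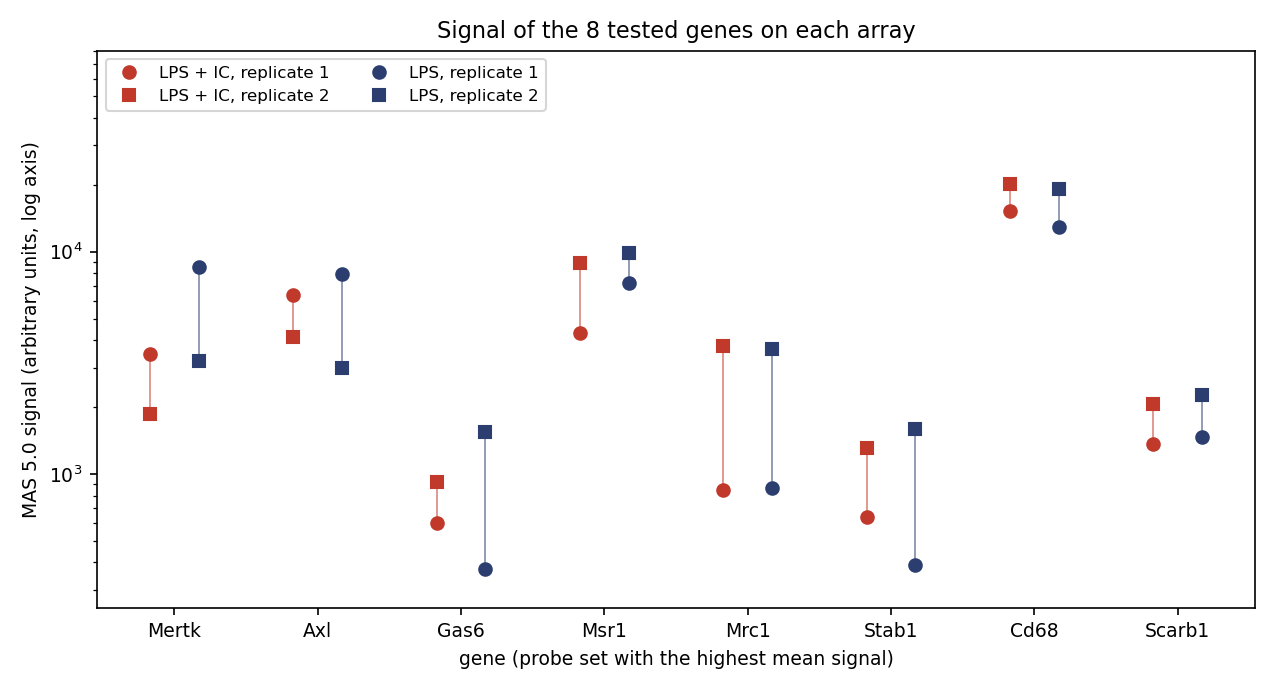
MAS 5.0 signal on a log axis for the brightest probe set of each of the 8 tested genes, with LPS plus immune complexes (red) left of LPS (blue), circles for replicate 1 and squares for replicate 2. The squares lie below the circles for Mertk and Axl in both stimulations and above them for the other 6 genes, and no gene has its red points clear of its blue ones.

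Mertk was lower with immune complexes in 3 of the 4 array pairs, and Axl and Gas6 in 2 of 4. Mertk (gene ID 17289, probe set 1422869_at), the receptor with the best known part in clearing apoptotic cells, read 3476.3 and 1857.9 on replicates 1 and 2 with LPS plus immune complexes, against 8525.9 and 3206.0 with LPS. The groups overlapped, since the first array with immune complexes read above the second LPS array. Its mean was 2667.1 ± 1144.4 with immune complexes and 5865.9 ± 3761.7 with LPS (SD, n = 2 arrays each). The log2 fold change was -1.03 ± 0.46 (SE; 95% interval -2.03 to -0.03), with an unadjusted limma p of 0.0446 and a limma adjusted p of 1. Among arrays of the same replicate number the ratio was 0.408 in replicate 1 and 0.58 in replicate 2. The labels do not say that numbers pair samples. With the number as a block, limma gave -1.03 ± 0.21 and an adjusted p of 0.000112, and 2.48% of all tested probe sets passed. In that fit limma's prior had infinite degrees of freedom, and every probe set was given the spread of the trend. Without the block, the log2 fold change depended on which array was left out. It was -0.33 without LPS replicate 1 and -1.73 without LPS replicate 2, the LPS array that caused the overlap. It was -1.48 without LPS_IC replicate 1 and -0.59 without LPS_IC replicate 2, the first and second arrays with immune complexes. Each of these fits leaves 1 array in a group, so only the sizes are given.

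Axl (gene ID 26362, probe set 1423586_at), a TAM receptor known to be induced by interferons and Toll-like receptor ligands, read 6407.0 and 4139.1 with immune complexes, against 7959.9 and 3004.5 with LPS. Both arrays with immune complexes lay between the LPS arrays. The log2 fold change was 0.07 ± 0.43 (95% interval -0.86 to 1.01; limma adjusted p = 1), and it was below 0 without LPS_IC replicate 1 (-0.24), without LPS replicate 2 (-0.62) and with median centring of the arrays (-0.12). A further Axl probe set, 1438621_x_at, was below the filter, with readings of 85.6 and 18.2 with immune complexes, against 23.5 and 19.6 with LPS. Probe sets with that ending can bind transcripts of several genes.

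Gas6 (gene ID 14456, probe set 1417399_at), the vitamin K-dependent ligand that links phosphatidylserine to these receptors, read 599.2 and 916.2 with immune complexes, against 374.8 and 1538.4 with LPS. Here too the LPS arrays lay outside the arrays with immune complexes on either side. Its log2 fold change was -0.05 ± 0.57 (95% interval -1.28 to 1.19; limma adjusted p = 1), and turned to 0.25 without LPS_IC replicate 1 and 0.93 without LPS replicate 2. The other Gas6 probe set, 1459585_at, had readings of 59.5 and 6.4 with immune complexes, against 15.6 and 10.1 with LPS, and was not tested. Tyro3, the remaining TAM receptor, also lay below the filter, with 89.0 and 27.9 with immune complexes, against 38.3 and 46.1 with LPS.

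The sequences upstream of the start sites of Mertk, Axl and Gas6 are shown because Mertk and Axl varied in the same direction between replicates and Gas6 in the opposite one. Each is the 250 bases before the RefSeq start, on the gene's strand, from RefSeq's annotation of GRCm38.p6: Mertk at chr2:128698665-128698914 on the plus strand, Axl at chr7:25788734-25788983 on the minus strand and Gas6 at chr8:13494536-13494785 on the minus strand. Capitals mark matches to any of 4 motifs searched on both strands, the PU.1 core GAGGAAG, the AP-1 motif TGANTCA, the interferon-gamma activated site TTCNNNGAA and the E-box CACGTG. Of all 32851 promoters in the table, 10.6% held the PU.1 core, 6.75% the AP-1 motif, 7.02% the interferon-gamma activated site and 6.02% the E-box in the same window.
Mertk: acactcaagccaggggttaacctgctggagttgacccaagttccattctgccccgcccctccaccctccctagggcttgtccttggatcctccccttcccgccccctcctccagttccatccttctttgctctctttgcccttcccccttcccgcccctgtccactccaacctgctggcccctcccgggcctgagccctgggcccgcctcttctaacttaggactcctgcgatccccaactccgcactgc
Axl: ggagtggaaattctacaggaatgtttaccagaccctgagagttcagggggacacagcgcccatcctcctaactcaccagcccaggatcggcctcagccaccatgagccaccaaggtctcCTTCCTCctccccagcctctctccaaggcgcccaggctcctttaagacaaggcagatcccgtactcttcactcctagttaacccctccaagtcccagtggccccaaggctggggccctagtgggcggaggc
Gas6: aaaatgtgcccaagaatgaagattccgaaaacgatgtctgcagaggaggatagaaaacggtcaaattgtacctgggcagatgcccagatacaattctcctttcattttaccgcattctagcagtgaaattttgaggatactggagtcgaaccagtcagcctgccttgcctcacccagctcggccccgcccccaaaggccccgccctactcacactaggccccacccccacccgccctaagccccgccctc
Axl held 1 PU.1 core, on the opposite strand 131 to 125 bases before the start, and the Mertk and Gas6 windows held none of the 4 motifs. A match is a description of the letters and not of a bound factor.

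**Figure D2:**
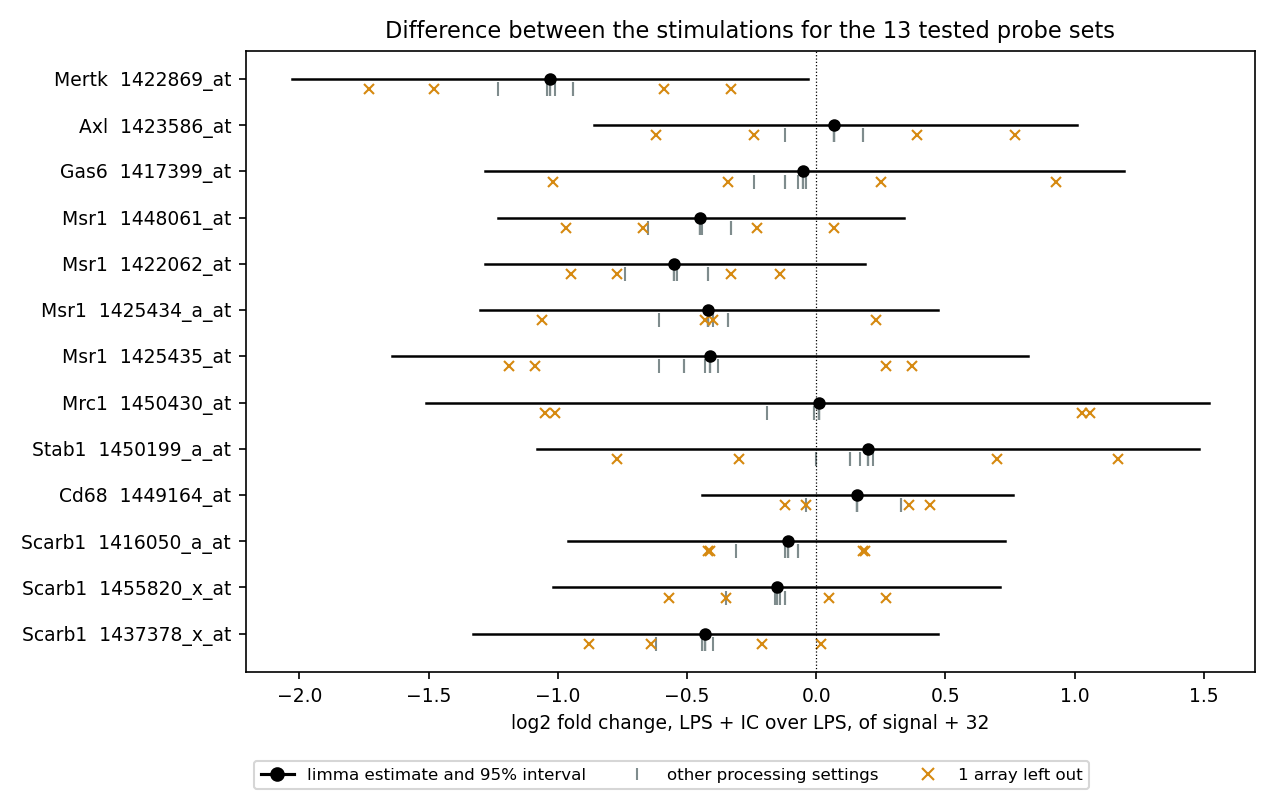
Log2 fold change, LPS plus immune complexes over LPS, for the 13 tested probe sets (dots) with the 95% interval of limma (lines), and below each the values with other processing settings (grey ticks) and with 1 array left out (orange crosses). The interval of Mertk ends just below 0 and all other intervals span 0, and the crosses lie on both sides of 0 for all but the Mertk probe set and the Msr1 probe set 1422062_at.

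Msr1 (gene ID 20288) encodes the class A scavenger receptor, a trimeric protein with a collagen-like stalk that binds acetylated and oxidised low density lipoprotein. All 4 of its probe sets were tested and all had log2 fold changes below 0, from -0.55 to -0.41. The brightest, 1448061_at, read 4302.3 and 8896.0 with immune complexes, against 7249.3 and 9882.0 with LPS, so that the first array with immune complexes was the lowest of the 4. Its log2 fold change was -0.45 ± 0.36 (95% interval -1.23 to 0.34; limma adjusted p = 1). The probe set 1422062_at read 4192.3 and 7392.4 with immune complexes, against 6993.3 and 9489.6 with LPS, a log2 fold change of -0.55 ± 0.34. On 1425434_a_at the readings were 1936.0 and 4771.6 with immune complexes, against 4020.9 and 4117.4 with LPS, so the second array with immune complexes was the highest there. The last, 1425435_at, read 475.4 and 1464.9 with immune complexes, against 689.5 and 1829.2 with LPS. Without LPS_IC replicate 1 these fold changes were 0.07, -0.14, 0.23 and 0.37 in the same order, so 3 of the 4 turned above 0 without that array. Probe sets of a gene share its transcripts and are not separate evidence.

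Marco (gene ID 17167), the other class A receptor, which binds bacteria and particles and is known to be inducible by LPS in macrophages, was at the bottom of the range on these arrays. The probe set 1449498_at read 35.1 and 8.4 with immune complexes, against 13 and 17.5 with LPS, and 1458297_s_at read 73.5 and 3.8, against 14.5 and 4.0. Neither reached the lowest mean signal tested, 69.7. The highest reading, 73.5, was on the array with raised low signals. The rank of that probe set within the array was also highest there, at percentile 28.4.

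Mrc1 and Stab1 had log2 fold changes near 0 between the stimulations and replicates that lay far apart. Mrc1 (gene ID 17533, probe set 1450430_at), the mannose receptor, a C-type lectin that takes up glycoproteins and is used as a marker of alternatively activated macrophages, read 846.4 and 3772.4 with immune complexes, against 864.1 and 3660.2 with LPS. Each array thus matched the array of the same number closely, with ratios of 0.98 in replicate 1 and 1.03 in replicate 2, and the second arrays read 4.46 times the first with immune complexes and 4.24 times with LPS. The log2 fold change was 0.01 ± 0.69 with a 95% interval from -1.51 to 1.52 and a limma adjusted p of 1. Leaving out any array gave values of about 1 in size, from -1.05 to 1.06. With quantile normalization it was -0.01, and with median centring -0.19.

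Stab1 (gene ID 192187, probe set 1450199_a_at), stabilin-1, which binds phosphatidylserine and modified lipoproteins, read 641.1 and 1309.9 with immune complexes, against 389.5 and 1594.0 with LPS. The LPS arrays again enclosed the arrays with immune complexes. Its log2 fold change was 0.20 ± 0.59 (95% interval -1.08 to 1.48; limma adjusted p = 1) and lay below 0 without LPS_IC replicate 2 (-0.30) and without LPS replicate 1 (-0.77). Cd163 (gene ID 93671, probe set 1419144_at), the receptor for haptoglobin-haemoglobin complexes, was below the filter, with 64.1 and 17.6 with immune complexes, against 25.5 and 51.0 with LPS. By rank within the array, Cd163 stood at percentiles 24.3 and 24.5 with immune complexes, against 24.3 and 39.4 with LPS. Its high reading on the first array with immune complexes was thus no higher in rank than on the first LPS array. Of the other probe sets below the filter, Marco 1458297_s_at, Axl 1438621_x_at and Gas6 1459585_at ranked highest on the first array with immune complexes. Marco 1449498_at ranked lowest there.

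The Mrc1 and Stab1 upstream windows are shown because these genes had replicates at least 2.04-fold apart in both stimulations, in the same direction. Mrc1 is at chr2:14229164-14229413 on the plus strand and Stab1 at chr14:31168642-31168891 on the minus strand, with build, source, motifs and capitals as above.
Mrc1: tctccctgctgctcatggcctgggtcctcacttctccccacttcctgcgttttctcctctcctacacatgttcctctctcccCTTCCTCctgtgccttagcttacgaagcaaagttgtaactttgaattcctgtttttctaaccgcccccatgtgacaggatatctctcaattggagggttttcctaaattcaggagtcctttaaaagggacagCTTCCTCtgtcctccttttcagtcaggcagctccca
Stab1: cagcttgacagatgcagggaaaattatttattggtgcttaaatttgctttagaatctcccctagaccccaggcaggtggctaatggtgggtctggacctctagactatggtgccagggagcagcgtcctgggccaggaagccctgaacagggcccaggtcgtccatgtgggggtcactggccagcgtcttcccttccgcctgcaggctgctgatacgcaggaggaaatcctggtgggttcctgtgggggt
The Mrc1 window held the PU.1 core at 2 places on the opposite strand, 168 to 162 and 36 to 30 bases before the start, and the Stab1 window held none of the 4 motifs.

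**Figure D3:**
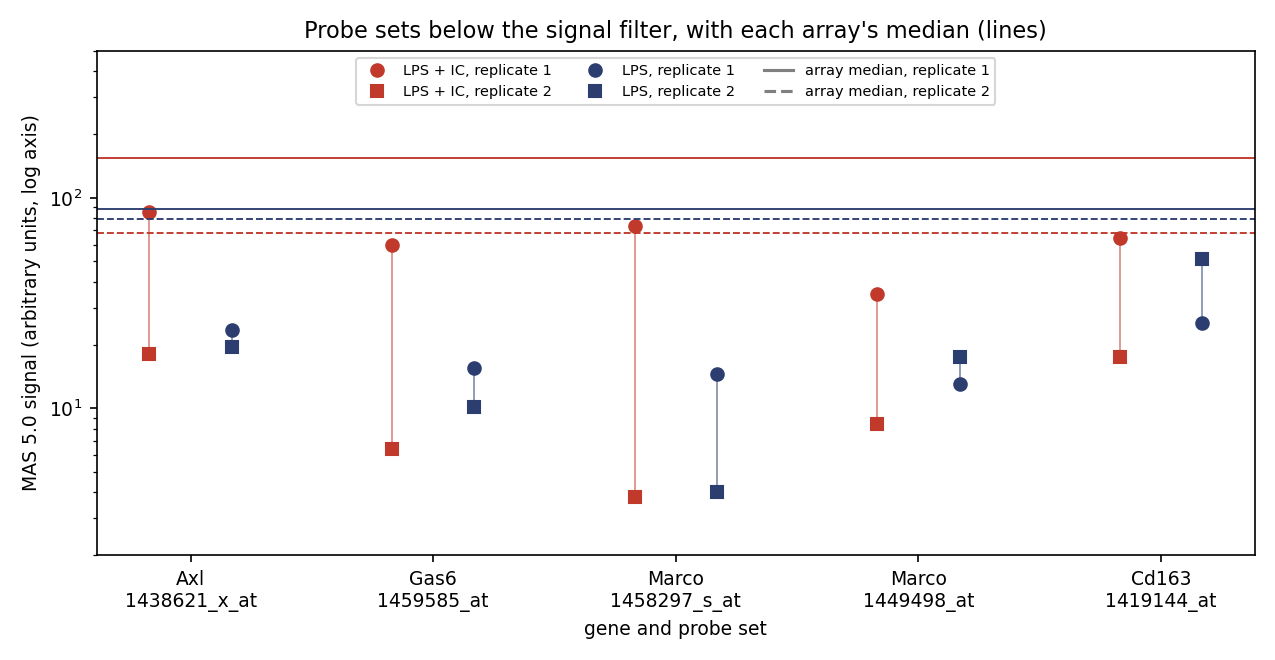
MAS 5.0 signal on a log axis for the 5 probe sets below the filter, with LPS plus immune complexes (red) left of LPS (blue), circles for replicate 1 and squares for replicate 2, and lines at the median of each array (solid for replicate 1, dashed for replicate 2). In all 5 the highest reading is the first array with immune complexes, and each reading lies below the median of its own array.

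Cd68 and Scarb1 had small differences between the stimulations and replicates closer together than those of Mrc1 and Stab1. Cd68 (gene ID 12514, probe set 1449164_at), a heavily glycosylated protein of endosomes and lysosomes that is used as a macrophage marker, read 15185.0 and 20124.6 with immune complexes, against 12851.0 and 19032.4 with LPS. It was higher with immune complexes in 3 of the 4 array pairs, with ratios of 1.18 in replicate 1 and 1.06 in replicate 2. The log2 fold change was 0.16 ± 0.28 (95% interval -0.44 to 0.76; limma adjusted p = 1). It was -0.04 with median centring and -0.12 without LPS replicate 1.

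Scarb1 (gene ID 20778) encodes the receptor for high density lipoprotein, which also binds phosphatidylserine. Its probe set 1416050_a_at read 1360.8 and 2067.8 with immune complexes, against 1465.8 and 2255.7 with LPS, and was lower in 3 of the 4 array pairs. The log2 fold change was -0.11 ± 0.39 (95% interval -0.96 to 0.73; limma adjusted p = 1). The probe sets 1455820_x_at and 1437378_x_at had -0.15 ± 0.40 and -0.43 ± 0.41, and their endings mark possible binding to several transcripts. On 1437378_x_at the readings were 809.4 and 1536.1 with immune complexes, against 1297.1 and 1763.0 with LPS. Without LPS_IC replicate 1 the fold change of the brightest probe set was 0.18, and without LPS replicate 2 it was 0.19.

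The window upstream of Cd68 is shown because it was the only one among the 8 genes of this family with an entry in the table that held the AP-1 motif. Of all promoters in the table, 6.75% held that motif. Since the window was picked for its match, the match is no result about Cd68. The Cd68 window lies at chr11:69666171-69666420 on the minus strand.
Cd68: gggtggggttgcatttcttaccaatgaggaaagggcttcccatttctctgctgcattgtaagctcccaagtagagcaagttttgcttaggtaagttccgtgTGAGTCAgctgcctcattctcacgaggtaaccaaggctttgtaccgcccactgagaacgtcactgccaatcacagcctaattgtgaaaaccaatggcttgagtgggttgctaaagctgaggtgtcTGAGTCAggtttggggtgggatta
The motif TGAGTCA stood at 2 places, 149 to 143 and 24 to 18 bases before the start. Msr1 and Scarb1 are the genes without an entry. The Marco window, not shown, held a PU.1 core 146 to 140 bases before the start. The Cd163 window, also not shown, held none of the motifs searched.

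In 6 of the 8 genes, all but Mertk and Msr1, both differences between replicates were larger than the difference between the stimulations. A replicate difference sets 1 array against 1, and the stimulation difference sets means of 2 arrays against each other, which vary less. The sizes are therefore unlike measures, and the same count over all tested genes was not made. In all 13 tested probe sets the second array differed from the first in the same direction with immune complexes and with LPS, as it did in 65.6% of all tested probe sets and in 72.7% of those with a mean signal of 500 or more. Over the 8 genes the median size of the log2 difference between replicates was 0.76 with immune complexes and 1.40 with LPS. Over all tested genes, which include dimmer ones, it was 0.56 and 0.43. The median size of the difference between stimulations was 0.14 for the 8 genes, beside 0.28 over all tested genes. By probe set, it was 0.20 for the 13, close to the 0.22 of the 9703 tested ones averaging at least 500. The replicate differences of the 13 had median sizes of 0.89 with immune complexes and 0.61 with LPS. Those of the 9703 had 0.37 and 0.40. Mertk and Axl were lower on the second arrays, with log2 differences of -0.89 and -0.63 with immune complexes and of -1.40 for each with LPS. The other 6 genes were higher there. For Gas6 the log2 difference was 0.59 with immune complexes and 1.95 with LPS, and for Msr1 1.04 and 0.45. Stab1 read 2.04 times as high on the second array as on the first with immune complexes and 4.09 times with LPS. Cd68 had log2 differences of 0.41 and 0.57, and Scarb1 of 0.59 and 0.61. The labels do not say what a replicate number stands for, and what lies behind these differences was not tested. They are descriptions of 4 arrays, and probe sets of the same cells are not independent.

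**Figure D4:**
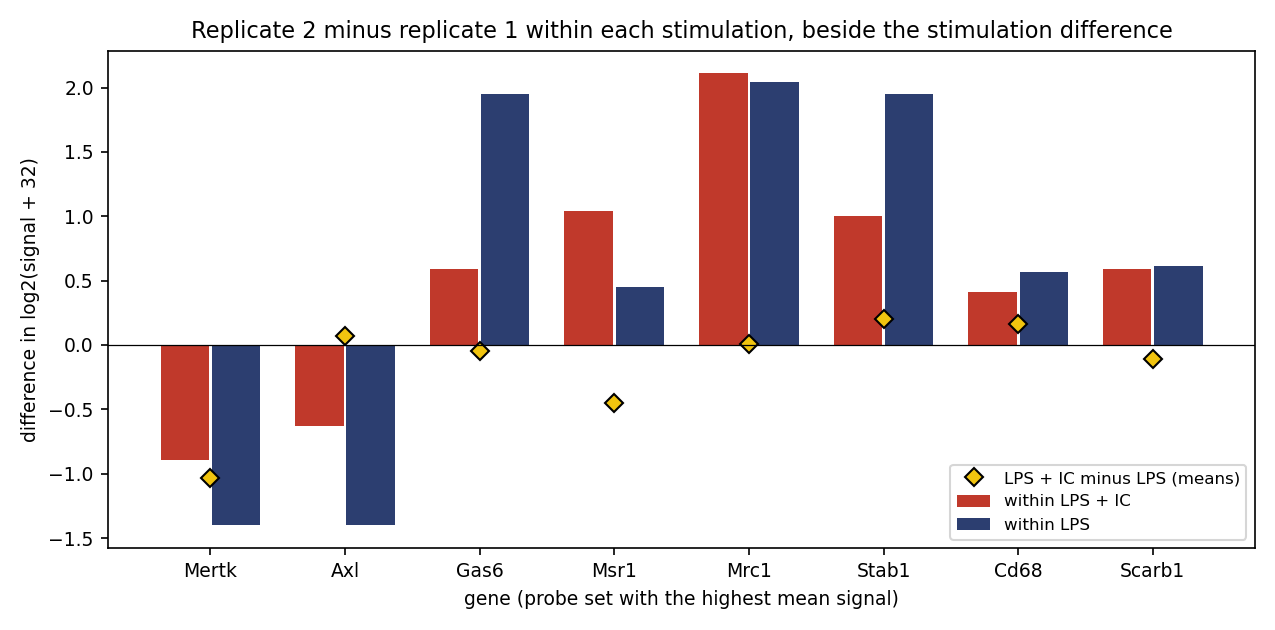
Replicate 2 minus replicate 1 in log2(signal + 32) within LPS plus immune complexes (red bars) and within LPS (blue bars) for the brightest probe set of each tested gene, with the difference between the stimulations' means (yellow diamonds). The bars of a gene point in the same direction in all 8, downward for Mertk and Axl and upward for the rest. The diamond is closer to 0 than either bar in the 6 genes other than Mertk and Msr1. A bar compares single arrays and a diamond compares means of 2 arrays, which vary less.

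Genes that work beside these receptors were taken from 4 lists of 70 genes, of which 66 were on the array as the only gene of a probe set and 54 were bright enough to test. None of the 54 passed the limma threshold on adjusted p. An unadjusted limma p under 0.05 was found for 1, against 3.13% of all tested genes, and the stimulations did not overlap in 11, against 26.3%. Among other receptors and bridging molecules for apoptotic cells, 0 of 14 passed, 11 were below 0 and the median log2 fold change was -0.17. Timd4, a phosphatidylserine receptor, had the lowest value. It read 3634.2 and 1625.3 with immune complexes, against 7137.4 and 3165.0 with LPS, a log2 fold change of -0.96 ± 0.46 (limma adjusted p = 1), and like Mertk its first array with immune complexes lay above the second LPS array. Havcr2, a checkpoint receptor that also binds phosphatidylserine, read 336.3 and 448.7, against 499.5 and 753.0, without overlap. Thbs1, a matrix protein that bridges apoptotic cells to phagocytes, had 0.54 ± 0.54, and Stab2, the relative of Stab1, had 0.47 ± 0.45.

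Other scavenger receptors had a median of -0.14, with 0 of 11 past the threshold and 7 below 0. The lectin-like receptor for oxidised lipoprotein, Olr1, read 2376.0 and 3011.9 with immune complexes, against 1703.3 and 1573.8 with LPS, so both arrays with immune complexes were higher, and its log2 fold change was 0.70 ± 0.34 (limma adjusted p = 1). Colec12, a collectin of the scavenger receptor family, did not overlap either, with 902.9 and 1440.2 with immune complexes, against 474.1 and 876.3 with LPS, and 0.79 ± 0.44 on the log2 scale. Scara5, a ferritin receptor, read 290.1 and 53.2 with immune complexes, against 21.2 and 92.0 with LPS, a log2 fold change of 1.03 ± 0.88, and its second array with immune complexes lay between the LPS arrays. Scarf2 had 0.35 ± 0.75.

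Genes of the engulfment machinery, which move the actin cortex around a particle, had a median of -0.08 with 0 of 16 past the threshold. The small GTPase Rac2 read 5326.4 and 6968.0 with immune complexes, against 7986.2 and 8955.0 with LPS, and Rac1 read 10474.0 and 12000.9, against 14113.2 and 13723.7, both without overlap. Their log2 fold changes were -0.47 ± 0.29 and -0.31 ± 0.25. Rhog, a GTPase upstream of Rac, had -0.45 ± 0.38, and Vav1, an exchange factor for Rac, 0.31 ± 0.39. The reference genes, such as Actb and Eef1a1, had a median of -0.22 and the macrophage markers one of -0.28, with 0 of 9 and 0 of 10 past the threshold. All 9 reference genes and 9 of the 10 macrophage markers were below 0, and 3 and 5 of them did not overlap. Values of this size and a lack of overlap were thus also seen in genes outside the family.

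Among 13 regulators and sheddases of these receptors 0 passed and the median was -0.07. Hmox1 was the gene with an unadjusted limma p under 0.05. Its product, heme oxygenase 1, degrades haem taken up through Cd163 and is an enzyme rather than a regulator or sheddase of the receptors. Cd163 itself lay below the filter. Hmox1 read 13583.9 and 5173.6 with immune complexes, against 3195.5 and 1426.0 with LPS, higher in all 4 array pairs. Its log2 fold change was 1.96 ± 0.48, with a limma adjusted p of 0.322. Rxra, a partner of the lipid-sensing nuclear receptors that control Mertk, read 480.0 and 259.9, against 156.3 and 232.4, without overlap. Its log2 fold change was 0.79 ± 0.48. The highest Rxra reading was on the first array with immune complexes, which stood apart at low signals. Spi1, which encodes the myeloid factor PU.1, read 5380.4 and 7860.2, against 8741.7 and 10141.5, also without overlap, with -0.53 ± 0.30 on the log2 scale. Timp3, an inhibitor of the metalloproteases that shed such receptors, had 0.76 ± 0.77, with 346.8 on the first array with immune complexes and at most 77.9 on the others.

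**Figure D5:**
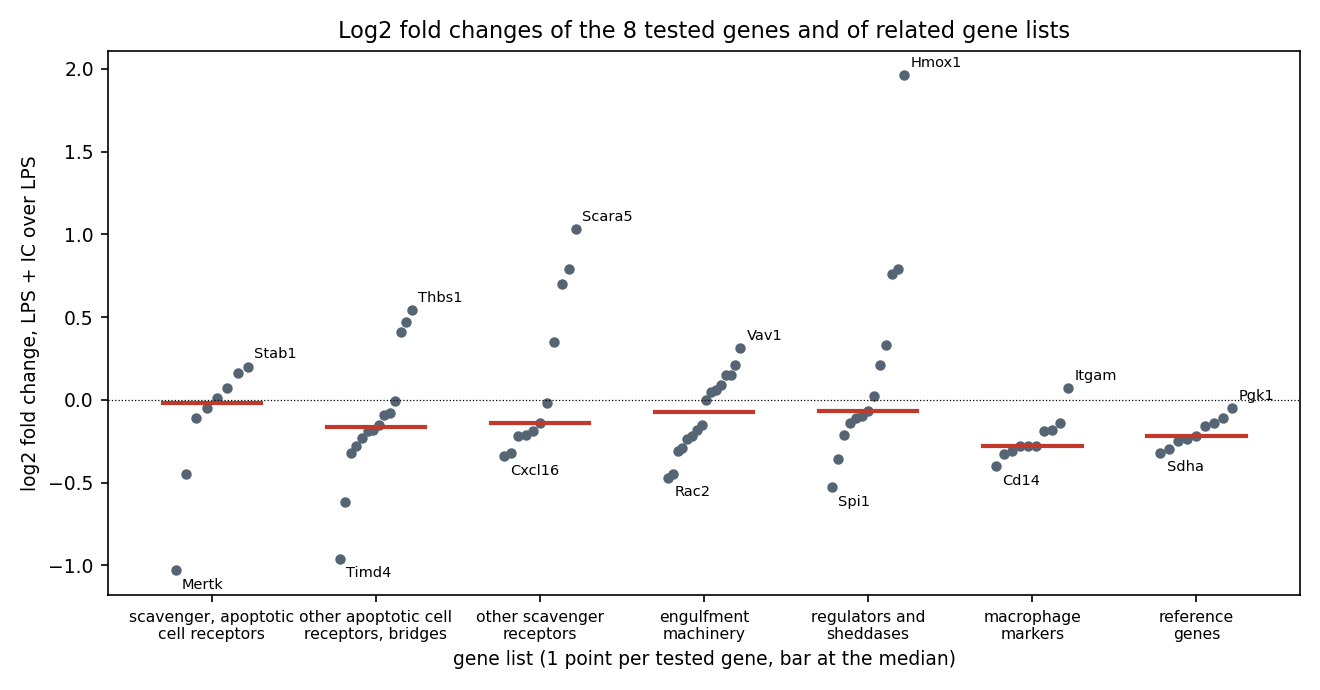
Log2 fold change, LPS plus immune complexes over LPS, of the 8 tested receptor and ligand genes, of the 4 related lists, and of macrophage markers and reference genes, with 1 point per tested gene, a red bar at the median and the lowest and highest gene named. The medians lie between -0.28 and -0.02, and Mertk, Timd4, Scara5 and Hmox1 are the points farthest from 0 in their lists.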

How the data were processed

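Total RNA of 4 macrophage samples was hybridised to a mouse Affymetrix array. The authors used MAS 5.0, per the submitters' processing notes, and deposited an intensity on a linear scale for every probe set of each array. All 4 arrays had the same trimmed mean, 500, and no normalization between arrays was added. No detection calls were used. Arrays shared at most 74 identical values, so each was taken as a separate sample.

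Groups came from sample titles. Control probe sets (64) and those with a mean signal under the 40th percentile were left out. Log2(signal + 32) was fitted with limma 3.58.1 in R 4.3.3 (lmFit, then eBayes with a variance trend). The moderated test was two-sided and had no block, and p-values were adjusted by the Benjamini-Hochberg method over 27022 probe sets. The method was tested on simulated data.

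GEO's annotation of the array gave 34945 probe sets with 1 gene, 932 with several and 9160 with none. The brightest tested probe set stood for a gene. Named were all 10 genes of the family and up to 4 genes of each related list, called ones before others and larger log2 fold changes before smaller. The genes and lists were chosen with earlier results of these data known. Alternatives changed the normalization, pseudocount, filter, variance trend, replicate block and arrays used. The array's annotation names no genome build, and positions of upstream windows are RefSeq's for GRCm38.p6.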

Additional observations from a re-analysis of the deposited data

How the results depend on the processing

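With 2 arrays per group, the number of arrays limits precision, and the family's 5 probe sets below the filter were all at their highest on LPS_IC replicate 1, whose low signals exceeded those of the other arrays. Counts over all probe sets depended on the settings. The 14 called in limma (12 higher, 2 lower) became 47 with median centring (33 higher, 14 lower), 23 and 6 with pseudocounts of 1 and 100, 89 without a filter and 4 with a filter at the 60th percentile. Limma called 0 with quantile normalization and 0 with no variance trend, where 823 and 619 had an unadjusted p under 0.05. With 1 array left out it called 0 to 109, with 0 without LPS_IC replicate 1 (758 at an unadjusted p under 0.05), 0 without LPS_IC replicate 2 (4007), 97 without LPS replicate 1 and 109 without LPS replicate 2. The median log2 fold change of all tested probe sets was -0.13 with median centring, against 0.07. The 254 probe sets at least 2-fold apart in all pairs became 423 and 143 with pseudocounts of 1 and 100, 52 at 3-fold, and 931 to 4284 with 1 array left out, over 2 pairs.

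Same-numbered arrays deviated together, with a correlation of 0.38, but the labels do not say that numbers pair samples. With the replicate block limma called 671 probe sets (404 higher, 267 lower; 2.48% of those tested), and with it and quantile normalization, chosen after seeing the data, 903 (3.34%). Of the family 1 was called with the block, Mertk (-1.03, adjusted p = 0.000112), and 2 with the block and quantile normalization, Mertk (-0.94, 6.87e-06) and Cd68 (0.33, 0.0465). In these fits, and with median centring or without either LPS array, limma's prior had infinite degrees of freedom, and every probe set was given the spread of the trend. With 1 array left out, 0 to 1 were called, under the assumption that a lone array varies like the other group's.

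Mertk stayed below 0 in every alternative run, from -1.73 to -0.33. Of the 8 genes, 4 were below 0, and 7 with median centring and 2 to 7 with 1 array left out. The others turned sign. Median centring gave -0.12 for Axl, -0.19 for Mrc1 and -0.04 for Cd68, and quantile normalization, with or without the block, gave -0.01 for Mrc1. With 1 array left out the ranges were -0.62 to 0.77 for Axl, -1.02 to 0.93 for Gas6, -0.97 to 0.07 for Msr1, -1.05 to 1.06 for Mrc1, -0.77 to 1.17 for Stab1, -0.12 to 0.44 for Cd68 and -0.42 to 0.19 for Scarb1. The cause of these changes was not tested.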
